A study of Mus musculus with 6 samples.

Results

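MHC class I genes and the genes that load peptides onto class I molecules were followed in cells selected from mouse B16 melanomas 14 days and 7 days after the tumour cells were implanted. The set holds every gene whose name starts with H2-K, H2-D, H2-Q, H2-T or H2-M followed by a digit, together with B2m, Tap1, Tap2, Tapbp, Tapbpl and Erap1. It counts 26 of the 26754 genes in the files, 20 by the H2 name and 6 by the list of loading genes. B16 is a melanoma line derived from C57BL/6 mice. Female C57BL/6J mice aged 6 to 8 weeks at purchase carried B16 cells under the skin of the right flank, and the cells of each tumour suspension that bound CD8a microbeads were collected on a column. Each day has 3 libraries. No tumour-free, untreated or unselected sample is used here, so every value is a comparison of 2 days of tumour growth. The animals share strain, sex and age range at purchase. Differences in handling between the days, if any, cannot be told apart from the day. The labels do not say whether the replicates of a day came from separate animals or from pools, so a p-value measures the spread between these libraries, which may be technical.

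Class I molecules carry short peptides from inside the cell to its surface, where CD8 T cells read them. A heavy chain pairs with beta-2-microglobulin (B2m). Peptides cut by the proteasome are pumped into the endoplasmic reticulum by the transporter Tap1/Tap2, trimmed by the aminopeptidase Erap1 and loaded with the help of tapasin (Tapbp) and the related peptide editor Tapbpl. H2-K1 and H2-D1 encode the classical heavy chains, found on nearly all nucleated cells, T cells and tumour cells alike. The H2-Q, H2-T and H2-M genes encode heavy chains with narrower or specialised roles. Interferon raises most of these genes, through factors such as Irf1 and Nlrc5.

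RNA was measured as RPKM, the reads of a gene per kilobase of its length and of the library's depth, and the reads behind each value could be recovered. Between 11385106 and 13316522 reads fell in genes on day 14, against 6523019 to 9313078 on day 7. The counts of replicates 1 and 2 of day 7 lay near sampling noise of one another (median chi-square ratio 1.11, mean 1.63, where 1 is noise alone). The median ratio was 40.9 and 44.4 when either was set against replicate 3, and any 2 libraries of day 14 gave 4.05 to 4.43. Against the day 14 libraries, day 7 replicate 3 gave medians of 29.5 to 29.6. Replicate 1 gave at most 40.2 and replicate 2 gave 46.7 to 47.6. By the median, replicate 3 thus lay no nearer to its own day than to day 14. By the mean ratio it lay nearer to its own day, at 30.4 and 34.3 against 39.7 to 44.8. Day 7 replicates 1 and 2 were averaged and counted as 1 sample, which leaves n = 3 for day 14 and n = 2 for day 7. In mean ± SD and in tests this averaged sample is used, while single values are given for all 6 libraries. Day 7 replicate 3 therefore decides much of the day 7 spread, and values without it are given below. Without it day 7 is 1 averaged sample, which is assumed to vary by the same trend as in the full data, so that the residual spread comes from day 14 alone. Adjusted p-values without it are therefore no independent support for a call, and a lost call does not show a smaller difference.

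The label CD8+ T cell was compared with marker genes. Each of 12 T cell markers had reads on both days, but their summed RPKM was 150 to 165 on day 14, against 585 to 649 on day 7, and genes of other cells were present beside them. Summed B16 melanoma markers reached 10410.3 to 11430.3 RPKM on day 14 and 5672 to 5896 RPKM on day 7. Macrophage and monocyte markers summed to 655 to 673 RPKM on day 14 and 317 to 423 RPKM on day 7, neutrophil markers to 49.0 to 63.3 and 12.7 to 17.4, and NK cell markers to 34.5 to 39.4 and 127 to 197. Single genes carry most of the macrophage and melanoma sums. Lyz2 averaged 383 RPKM on day 14 and 207 RPKM on day 7, and the melanoma gene Dct 9110 and 4527. In the test described below, 4 of 9 macrophage markers were called higher on day 14 and 0 lower, and 3 and 0 of 7 melanoma markers. Means of Adgre1, Fcgr1, C1qc and Mitf were lower on day 14, without a call. Dendritic cell markers summed to 10.7 to 11.3 RPKM on day 14 and 14.0 to 25.8 RPKM on day 7, B cell markers to 21.5 to 22.7 and 17.8 to 33.3, endothelial markers to 4.66 to 5.10 and 4.21 to 7.87, fibroblast markers to 1.01 to 1.33 and 1.32 to 1.85, and erythroid markers to 1479 to 1665 and 1274 to 1710. The only marker genes listed at 0 in all libraries of a day were neutrophil ones, 1 of 6 on day 14 and 3 of 6 on day 7. The libraries are thus RNA of mixed cells, and fewer cells of a type cannot be told apart from less RNA per cell.

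The promoters of 4 members are shown because they stand for the ends of the comparison that follows, with H2-T22 the called member with the largest change on the log2(RPKM + 1) scale, H2-K1 the one with the smallest, and H2-D1 and B2m the other abundant members. Each window runs from 250 bases before the gene's start to 50 bases after it, 300 bases in all, from RefSeq on GRCm38.p6, the build of the files, and is written in the direction of transcription. H2-K1, for which the first of 2 listed windows is used, lies at chr17:34000284-34000583 on the minus strand, H2-D1 at chr17:35262844-35263143 on the plus strand, B2m at chr2:122147437-122147736 on the plus strand and H2-T22 at chr17:36042693-36042992 on the minus strand. Capitals mark matches on either strand to TTCNNTTTC (letters of interferon response elements), GGGATTCCC (letters of the kappa B site in enhancer A of class I genes), TGACG (letters of sites bound by CREB-type factors) and CCAAT (the box bound by NF-Y), of which no 2 different motifs overlap in these windows.
H2-K1: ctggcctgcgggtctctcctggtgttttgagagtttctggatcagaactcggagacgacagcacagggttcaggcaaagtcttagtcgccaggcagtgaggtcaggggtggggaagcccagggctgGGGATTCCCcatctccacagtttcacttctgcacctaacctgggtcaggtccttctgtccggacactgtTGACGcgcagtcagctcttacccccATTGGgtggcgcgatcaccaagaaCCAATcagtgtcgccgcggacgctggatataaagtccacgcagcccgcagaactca
H2-D1: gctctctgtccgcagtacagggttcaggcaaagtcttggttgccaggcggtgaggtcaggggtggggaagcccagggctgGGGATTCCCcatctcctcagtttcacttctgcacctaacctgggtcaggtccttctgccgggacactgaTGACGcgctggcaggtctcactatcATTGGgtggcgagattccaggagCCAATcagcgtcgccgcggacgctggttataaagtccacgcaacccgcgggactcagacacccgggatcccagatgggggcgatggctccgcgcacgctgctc
B2m: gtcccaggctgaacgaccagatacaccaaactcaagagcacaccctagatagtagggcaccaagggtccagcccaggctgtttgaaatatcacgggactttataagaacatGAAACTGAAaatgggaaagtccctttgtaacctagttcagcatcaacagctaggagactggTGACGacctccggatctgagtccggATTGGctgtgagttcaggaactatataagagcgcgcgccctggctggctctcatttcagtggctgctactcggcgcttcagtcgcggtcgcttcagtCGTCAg
H2-T22: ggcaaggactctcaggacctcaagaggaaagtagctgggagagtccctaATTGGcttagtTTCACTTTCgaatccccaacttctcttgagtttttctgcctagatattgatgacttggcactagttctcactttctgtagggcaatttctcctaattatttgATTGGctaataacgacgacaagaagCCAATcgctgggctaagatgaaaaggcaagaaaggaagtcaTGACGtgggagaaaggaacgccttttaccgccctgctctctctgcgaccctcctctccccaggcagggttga
H2-K1 and H2-D1 share a run of 47 identical bases and the same order of matches, with GGGATTCCC, TGACG and CCAAT spaced by 69 and then 25 bases in both. B2m lacks GGGATTCCC but has TGACG and CCAAT 25 bases apart and, upstream of them, a match to TTCNNTTTC. H2-T22 shares no run longer than 10 bases with H2-K1, has TTCNNTTTC at 190 bases before its start, and lacks GGGATTCCC. RefSeq windows were found for 17 members, 12 of them among the members tested below. Of these 12, TTCNNTTTC was present in 4 (B2m, Erap1, H2-T22 and H2-T23), GGGATTCCC in 4 (H2-K1, H2-D1, H2-Q6 and H2-Q7), TGACG in 8 and CCAAT in 11. Among all 32851 promoter windows the shares were 8.56% for TTCNNTTTC, 0.353% for GGGATTCCC, 20.8% for TGACG and 37.4% for CCAAT. A match is a run of letters and not evidence that a factor binds there. Only 1 spelling of each motif was searched, so a window without a match may still hold a variant of that element. The windows of H2-K1, H2-D1 and other members without TTCNNTTTC are therefore not shown to lack an interferon response element.

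The 26 members, loading genes included, made up 0.287%, 0.275% and 0.286% of all reads in the day 14 libraries, against 0.578%, 0.560% and 0.579% in the day 7 libraries. Of the 26 members, 25 had a read, and 16 reached a mean of 20 CPM (reads scaled to a common library size) and were tested. As a share of all reads 11 of the 16 were called lower on day 14, none higher and 5 gave no call, at an adjusted p under 0.05 from limma. Divided by T cell RNA, as described further on, 14 of the 16 lay above 0, as did 99.3% of all tested genes. Over all 6691 genes tested, 3.18% were called lower and 1.7% higher, 4.89% in all. The median log2 fold change was -1.25 over the 16 members and 0.16 over all genes. Of all calls 34.9% were higher, and this share was 17.8% with median-of-ratios scaling and 61.9% with TPM scaling, under which 13 and 10 members were called lower. Only H2-T10 passed the filter through its day 7 level alone. In 15 of the 16 all day 14 libraries lay below all day 7 libraries, an arrangement that 17.8% of all tested genes had.

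**Figure D1:**
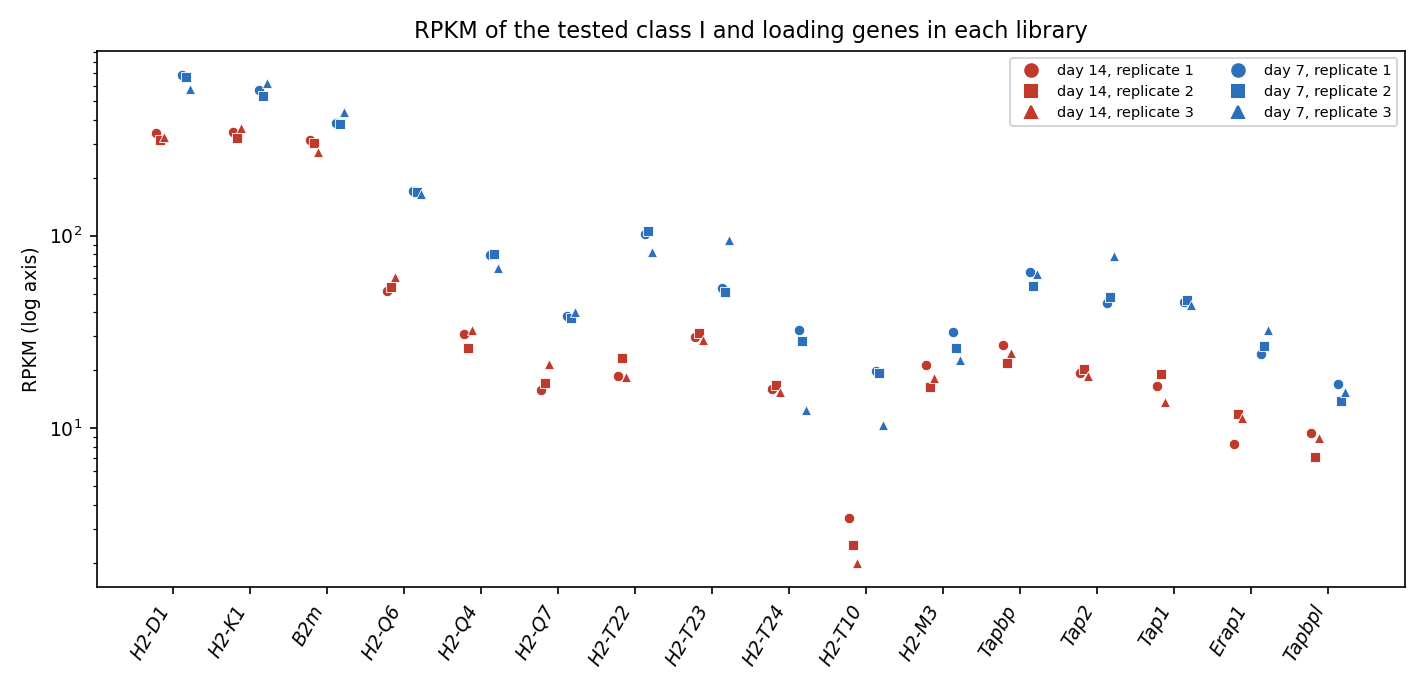
RPKM of the 16 tested members in every library on a log axis, with day 14 in red to the left of day 7 in blue for each gene and circle, square and triangle for replicates 1, 2 and 3. Day 14 lies below day 7 without overlap in 15 members, and in H2-T24 day 7 replicate 3, at 12.4 RPKM, falls below the day 14 libraries.

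The classical heavy chains were the most abundant members and were called lower as a share of all reads, by less than 2-fold. H2-K1 (chr17:33996017-34000333, minus strand) had 346, 323 and 364 RPKM on day 14 and 568, 528 and 618 RPKM on day 7. H2-D1 (chr17:35262730-35267499, plus strand) had 343, 314 and 326 RPKM on day 14 and 681, 669 and 581 RPKM on day 7. In both genes the day 14 libraries lay close together and well below every day 7 library. H2-K1 averaged 344 ± 20 RPKM on day 14 and 583 ± 50 RPKM on day 7 (log2 fold change -0.76, SE 0.11, limma adjusted p = 0.00209). H2-D1 averaged 328 ± 15 RPKM on day 14 and 628 ± 67 RPKM on day 7, a log2 fold change of -0.93 (SE 0.10, limma adjusted p = 0.000425). Without day 7 replicate 3 the log2 fold changes were -0.67 for H2-K1 (adjusted p = 0.0419) and -1.04 for H2-D1 (adjusted p = 0.00119). Together H2-K1 and H2-D1 summed to 689, 637 and 690 RPKM on day 14, against 1249, 1197 and 1199 RPKM on day 7.

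B2m, the light chain that every classical class I molecule needs, had the smallest difference of the 3 most abundant members. B2m (chr2:122147686-122153083, plus strand) had 314, 303 and 272 RPKM on day 14 and 384, 378 and 438 RPKM on day 7. The groups did not overlap, but the difference was not called, with a log2 fold change of -0.47 (SE 0.13, 95% interval -0.76 to -0.17, limma adjusted p = 0.0745). The missing call depended on the processing, since B2m was called lower without a filter (adjusted p = 0.0259), without weights (0.0388), with 6 libraries counted singly (0.0150, or 0.0496 with a replicate block), with median-of-ratios scaling (0.0204) and with voom (0.0189).

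Among the H2-Q genes, H2-Q6 and H2-Q7 encode Qa-2 antigens. H2-Q6 had 51.9, 54.0 and 61.3 RPKM on day 14 and 171, 169 and 165 RPKM on day 7, a 3.004-fold lower mean with little spread within a day. Its log2 fold change was -1.57 (SE 0.18, limma adjusted p = 0.00052), and without day 7 replicate 3 it was -1.59 (adjusted p = 0.0103). H2-Q7 had 15.8, 17.1 and 21.7 RPKM on day 14 and 38.2, 37.5 and 40.1 RPKM on day 7. Its libraries did not overlap either, yet it missed the threshold (log2 fold change -1.07, SE 0.30, limma adjusted p = 0.0755). It too was called lower under 6 of 17 other settings, among them without weights (adjusted p = 0.0179) and without day 14 replicate 3 (adjusted p = 0.0285). Of the 150-base windows in their transcripts, 5.99% in H2-Q6 and 5.90% in H2-Q7 are also found in another gene, so reads of this pair are in part uncertain. H2-Q4 had 31.1, 26.1 and 32.4 RPKM on day 14 and 79.0, 80.7 and 67.7 RPKM on day 7. It was called lower (log2 fold change -1.28, SE 0.23, limma adjusted p = 0.0106), with 9.87% of its windows shared with another gene, and without day 7 replicate 3 it was not called at a log2 fold change of -1.40 (adjusted p = 0.0664).

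The H2-T genes held the 2 largest changes and the only tested member whose days overlapped. H2-T22 and H2-T10 are near relatives whose products are known as ligands of some gamma delta T cell receptors and do not present peptides. H2-T22 (chr17:36037128-36042747, minus strand) had 18.7, 23.2 and 18.4 RPKM on day 14 and 102, 105 and 82.4 RPKM on day 7. Every day 7 library was over 3 times any day 14 library. Its mean was 4.63-fold lower on day 14 (log2 fold change -2.15, SE 0.23, limma adjusted p = 0.000425), and without day 7 replicate 3 the log2 fold change was -2.32 (adjusted p = 0.00492). H2-T10, which RefSeq lists as a transcribed pseudogene, had 3.42, 2.47 and 2.00 RPKM on day 14 and 19.9, 19.3 and 10.4 RPKM on day 7. It passed the filter through its day 7 level alone, so a high day 7 value was needed for it to be tested. It was called lower (log2 fold change -2.10, SE 0.44, limma adjusted p = 0.0216) but not without day 7 replicate 3 (log2 fold change -2.53, adjusted p = 0.0619) or day 14 replicate 2 (adjusted p = 0.0512). The ratio of its mean RPKM was larger than that of H2-T22, at 5.72-fold lower, and it passed H2-T22 with a pseudocount of 0.1 (log2 fold change -2.43 against -2.20). Of the 150-base windows, read on either strand, 22.3% in H2-T22 and 20.9% in H2-T10 are found in another gene. Most of these lie in A930015D03Rik for H2-T22 (21.9%) and in BC023719 for H2-T10 (20.5%), not in the other gene of the pair. The T22 model overlaps that of A930015D03Rik on the other strand over 29.4% of its length, which is largely the same limit. That partner had 2 to 16 reads on day 14 and 0 to 90 reads on day 7, beside 725 to 994 reads and 1834 to 3344 reads in H2-T22.

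H2-T23 encodes Qa-1, which shows leader peptides of other class I chains to the receptor pair Klrc1 and Klrd1. H2-T23 had 29.7, 31.1 and 28.8 RPKM on day 14 and 53.8, 51.0 and 94.99 RPKM on day 7. Day 7 replicate 3 was the highest of the 6 libraries and the other 5 were closer together. The gene was called lower (log2 fold change -1.21, SE 0.24, limma adjusted p = 0.0149), and without that library the log2 fold change was -0.79 with adjusted p = 0.264. H2-T24 had 16.1, 16.8 and 15.4 RPKM on day 14 and 32.4, 28.3 and 12.4 RPKM on day 7, so the days overlapped through replicate 3 alone (log2 fold change -0.27, SE 0.35, limma adjusted p = 0.722). Without replicate 3 the log2 fold change of H2-T24 was -0.88, still no call (adjusted p = 0.297). H2-M3, which presents N-formylated peptides, had 21.4, 16.4 and 18.2 RPKM on day 14 and 31.7, 26.1 and 22.7 RPKM on day 7. The closest libraries of the 2 days differed little, and no change was called (log2 fold change -0.44, SE 0.32, limma adjusted p = 0.485).

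Summed over the 17 H2-Q, H2-T and H2-M members in the files, the non-classical level was 199, 201 and 209 RPKM on day 14 and 545, 532 and 519 RPKM on day 7. Relative to the sum of H2-K1 and H2-D1 it was 0.289, 0.315 and 0.303 on day 14, against 0.436, 0.445 and 0.433 on day 7. The ratios of the 2 days did not overlap, and the log2 difference was -0.53. An exact permutation test, two-sided, gave p = 0.2, the smallest possible with 10 ways to divide 5 samples, so no ratio here could pass 0.05.

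The 4 called loading genes covered transport, trimming and tapasin. Tap1 (chr17:34187553-34197225, plus strand) had 16.5, 19.1 and 13.6 RPKM on day 14 and 45.4, 46.3 and 43.6 RPKM on day 7. Its partner Tap2 (chr17:34203527-34216321, plus strand) had 19.3, 20.4 and 18.7 RPKM on day 14 and 44.9, 47.9 and 78.2 RPKM on day 7. Both transporter chains were called lower, Tap1 with a log2 fold change of -1.40 (SE 0.30, limma adjusted p = 0.0219) and Tap2 with -1.58 (SE 0.24, limma adjusted p = 0.00352). Tapbp had 27.1, 21.7 and 24.5 RPKM on day 14 and 65.0, 54.8 and 63.2 RPKM on day 7 (log2 fold change -1.30, SE 0.24, limma adjusted p = 0.0109). Erap1 (chr13:74639872-74691875, plus strand) had 8.32, 11.9 and 11.3 RPKM on day 14 and 24.2, 26.8 and 32.2 RPKM on day 7 (log2 fold change -1.38, SE 0.35, limma adjusted p = 0.0468). In each of these 4 genes every day 14 library was below every day 7 library. All 4 lost the call without day 7 replicate 3, with adjusted p = 0.132 for Tap1, 0.108 for Tap2, 0.112 for Tapbp and 0.302 for Erap1, while their log2 fold changes ran from -1.44 to -1.21. The call of Erap1 was also lost without day 7 replicate 2 (adjusted p = 0.0573), day 14 replicate 3 (0.0522) or the filter (0.0528), at 5 CPM (0.0617) and with TPM scaling (0.0692). Tapbpl, the tapasin relative, had 9.49, 7.14 and 8.91 RPKM on day 14 and 17.1, 13.8 and 15.5 RPKM on day 7, which gave no call (log2 fold change -0.80, SE 0.36, limma adjusted p = 0.259).

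Some of these gene models overlap others, which leaves their reads uncertain because the strand setting of the counting is not given in the sources used here. Tap1 overlaps Psmb9 on the other strand over 3.87% of its length, Tap2 overlaps Gm15821 over 14.1%, Tapbp overlaps Gm19412 over 20.2%, H2-Q4 overlaps Gm11131 over 19.1% and H2-T10 overlaps BC023719 over 27.1%. Tap2 also overlaps Gm20496 on the other strand over 4.36%. Over the 6 libraries Gm15821 held 466 to 1199 reads and Gm20496 617 to 953, beside 831 to 1929 in Tap2. Psmb9 held 327 to 699 beside 995 to 2362 in Tap1. Gm19412 held 199 to 373 beside 899 to 1708 in Tapbp, and Gm11131 317 to 535 beside 852 to 1952 in H2-Q4. BC023719 held at most 82, beside 91 to 616 in H2-T10. How many of these reads fell in shared bases was not tested. The shared windows of H2-Q4 (9.87%) lie in its partner Gm11131, and those of Tapbp (10.1%) in its partner Gm19412. Of the Erap1 windows 9.43% are also found in Cast. H2-K1 and B2m share no 150-base window with another gene and H2-D1 shares 1.35%.

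**Figure D2:**
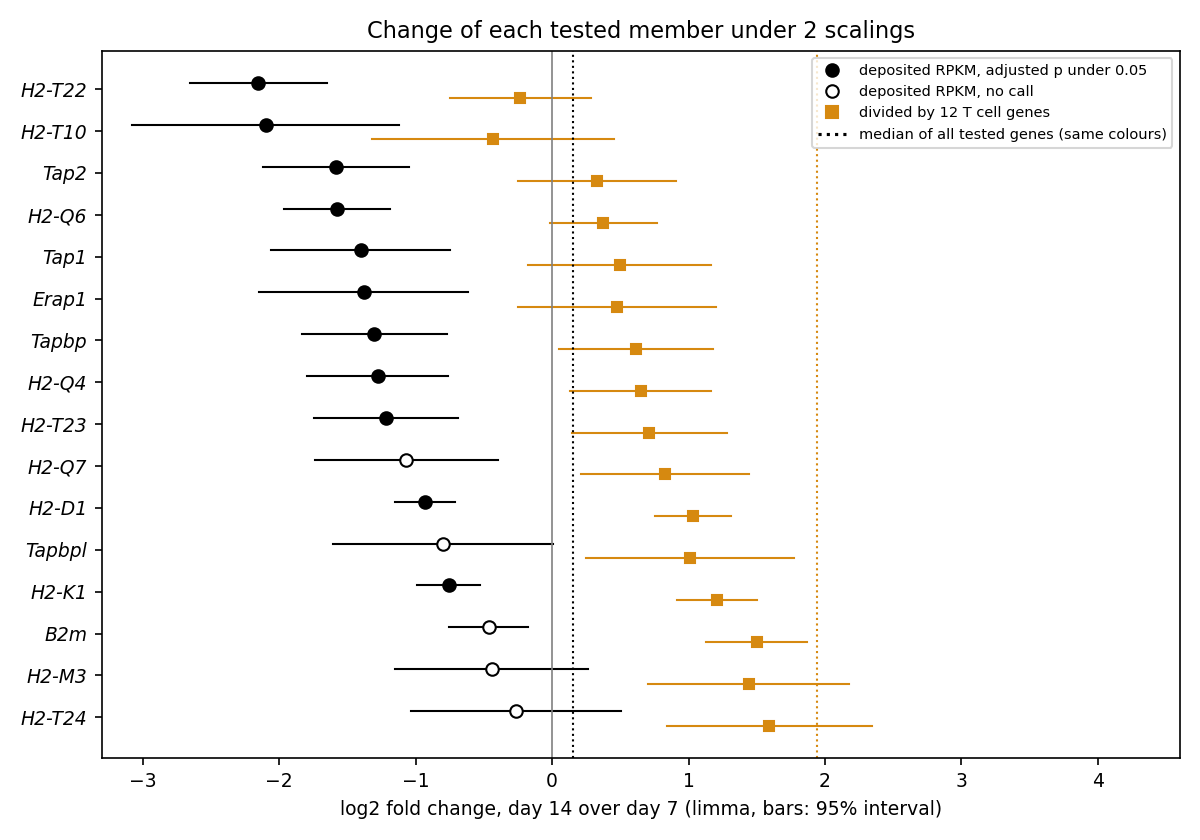
Log2 fold change of the 16 tested members, day 14 over day 7, with 95% intervals from limma, once as a share of all reads and once divided by the T cell genes, beside the median of all genes on each scale. As a share of all reads every point lies below 0, and per T cell transcript nearly all genes shift upward and 14 members lie above 0, while H2-T22 and H2-T10 stay below it.

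Spread within a day differed between members. With day 7 replicates 1 and 2 averaged, the highest over the lowest sample was 1.24 at the median on day 14 (range 1.08 to 1.71) and 1.17 on day 7 (range 1.01 to 2.44). It passed 1.5 in 1 member on day 14, H2-T10, and in 4 on day 7, namely H2-T10, H2-T23, H2-T24 and Tap2. Day 7 replicate 3 stood at 1.81 times the mean of replicates 1 and 2 for H2-T23 and 1.68 times for Tap2, but at 0.41 times for H2-T24 and 0.53 times for H2-T10. The same library thus lay above its companions for 2 of these members and below them for the other two. With replicate 3 as the only day 7 sample, where again only day 14 gives a residual spread, 6 members were called lower and H2-T10, H2-Q4, Tap1, Tapbp and Erap1 were not.

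Of the other 10 members, 9 had reads but fell under the filter and 1, H2-M10.2, had none. The 4 of these 9 with the highest mean RPKM differed in direction, and none entered the main test. H2-Q5, a transcribed pseudogene in RefSeq, had 5.91, 9.06 and 8.31 RPKM on day 14 and 16.7, 14.6 and 16.8 RPKM on day 7. H2-K2, also a transcribed pseudogene, had 4.44, 6.30 and 10.3 RPKM on day 14 and 0.718, 0.102 and 3.51 RPKM on day 7. Thus H2-Q5 lay below its day 7 values in every day 14 library, and H2-K2 lay above them. H2-M2 had 3.11, 3.44 and 1.40 RPKM on day 14 and was listed at 0 in all 3 day 7 libraries. When all genes with reads were tested, H2-M2 was the only member called higher (limma adjusted p = 0.00308). In that test 1181 of 22716 genes were called higher and 284 lower, beside 1 and 11 of 25 members. Day 7 libraries had 13133 to 13806 genes with a read, against 18318 to 19053 on day 14. A value of 0 on day 7 is thus not particular to H2-M2. H2-Q1 had 0.860, 0.919 and 0.551 RPKM on day 14 and 0.790, 0.939 and 2.79 RPKM on day 7, and these overlap. The last 5, H2-Q2, H2-Q3, H2-Q10, H2-M5 and H2-M6-ps, stayed at or under 3.24 RPKM in every library.

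Ratios between members of one library do not depend on how libraries are scaled. H2-D1 to H2-K1 was 0.993, 0.972 and 0.896 on day 14 and 1.20, 1.27 and 0.940 on day 7, and the days overlapped through replicate 3 of day 7 (log2 difference -0.18, exact permutation p = 0.6, and -0.37 without that library). H2-K1 to B2m was 1.10, 1.06 and 1.34 on day 14 and 1.48, 1.40 and 1.41 on day 7 (log2 difference -0.29, exact permutation p = 0.2). H2-D1 to B2m was 1.09, 1.03 and 1.20 on day 14 and 1.77, 1.77 and 1.33 on day 7 (log2 difference -0.47, exact permutation p = 0.2). Both heavy chains therefore stood lower against the light chain in every day 14 library than in any day 7 library. Tap1 to Tap2 was 0.854, 0.936 and 0.728 on day 14 and 1.01, 0.966 and 0.557 on day 7, with replicate 3 of day 7 below all others (log2 difference 0.17, exact permutation p = 0.8, and -0.24 without that library). Tapbp to Tap1 was 1.65, 1.14 and 1.79 on day 14 and 1.43, 1.18 and 1.45 on day 7 (log2 difference 0.12, exact permutation p = 0.8). Neither loading ratio separated the days.

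Set against Ptprc, the CD45 of all white blood cells, the abundant members went the other way. B2m to Ptprc was 7.40, 7.42 and 6.64 on day 14 and 3.32, 3.29 and 3.62 on day 7 (log2 difference 1.05, exact permutation p = 0.2). H2-K1 to Ptprc was 8.16, 7.90 and 8.88 on day 14 and 4.90, 4.59 and 5.11 on day 7 (log2 difference 0.75, exact permutation p = 0.2). H2-D1 to Ptprc was 8.10, 7.68 and 7.95 on day 14 and 5.88, 5.81 and 4.80 on day 7 (log2 difference 0.58, exact permutation p = 0.2). All day 14 ratios lay above all day 7 ratios, and Ptprc itself was at 42.4, 40.9 and 41.0 RPKM on day 14 and 116, 115 and 121 RPKM on day 7. A gene unchanged as a share of all reads would therefore also rise against Ptprc. The median log2 fold change of all tested genes was 0.16, and the share of them that rise against Ptprc was not counted. The direction of these 3 ratios is thus not shown to be particular to the members. B2m to the class II gene H2-Ab1 was 0.552, 0.570 and 0.482 on day 14 and 0.477, 0.502 and 0.467 on day 7, and these overlapped (log2 difference 0.16, exact permutation p = 0.4). Adjusted over the 10 ratios tested, p ran from 0.333 to 0.8.

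**Figure D3:**
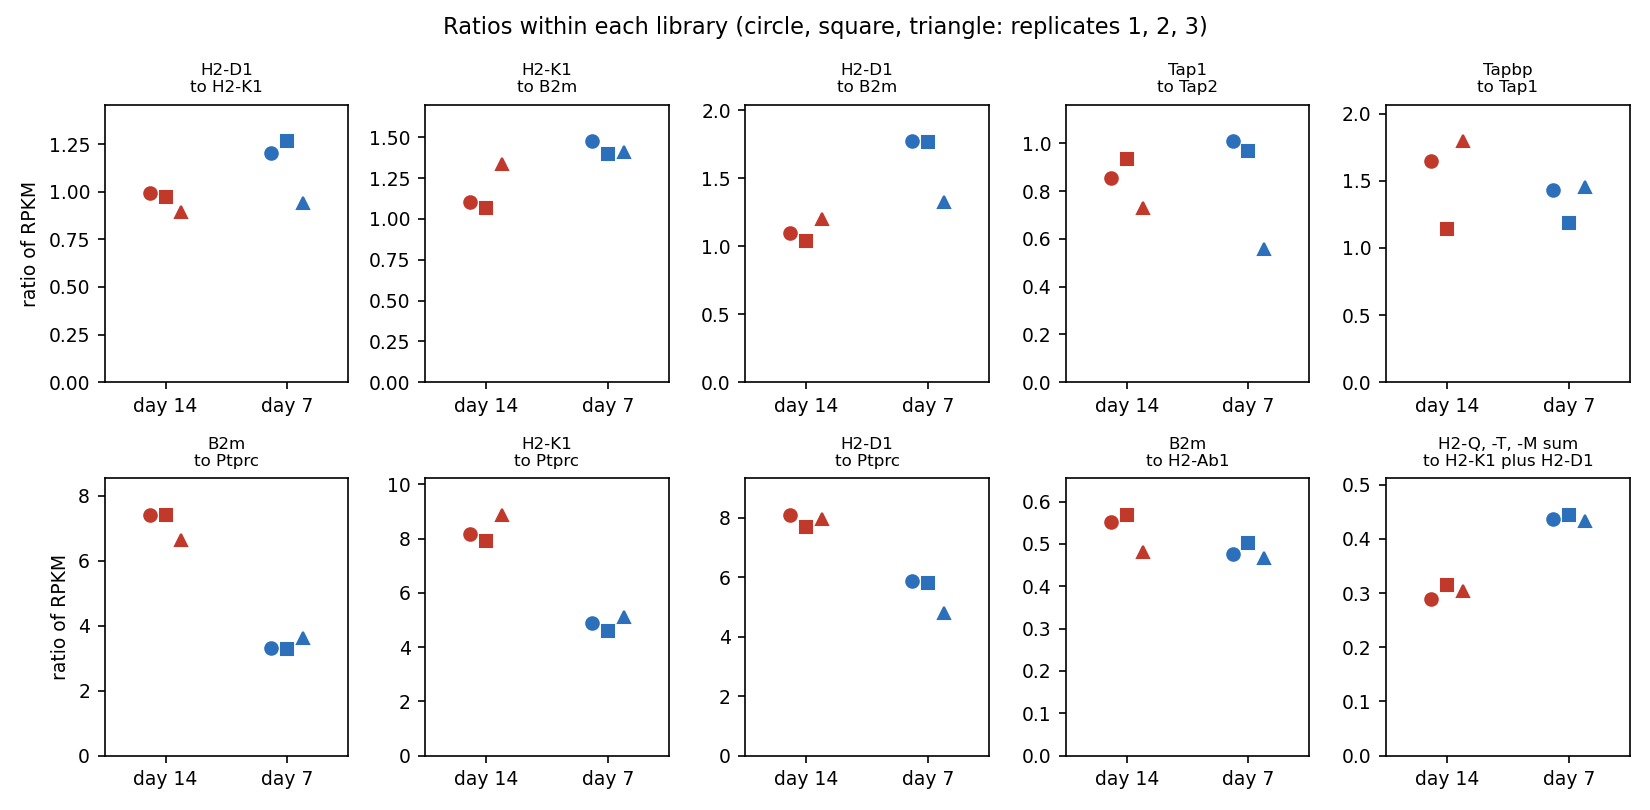
The 10 RPKM ratios within each library each in a panel with a linear axis from 0, day 14 in red to the left of day 7 in blue, with circle, square and triangle for replicates 1, 2 and 3. Ratios of H2-K1, H2-D1 and B2m to Ptprc lie higher in all day 14 libraries, ratios of H2-K1 and H2-D1 to B2m and of the non-classical sum to H2-K1 plus H2-D1 lie lower, and the other 4 overlap.

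On a scale of T cell RNA nearly all genes lay higher on day 14, the members among them. Dividing each library by the summed RPKM of the 12 T cell markers shifted all genes to a median of 1.94 and the 16 members to one of 0.68 (log2 fold change). On that scale H2-K1 was at 1.21, H2-D1 at 1.03, B2m at 1.499, H2-M3 at 1.44, H2-T24 at 1.59, Tapbpl at 1.01 and H2-Q7 at 0.83, all as log2 fold changes. Of the genes below 0 as a share of all reads, 98.2% lay above 0 on this scale, so a turned sign is not particular to the members. The other members above 0 lay between 0.33 (Tap2) and 0.71 (H2-T23), while H2-T22 was at -0.23 and H2-T10 at -0.44 with 95% intervals that include 0. Of the 16 members, 10 were called higher on this scale and 0 lower, against 94.9% of all tested genes called higher. On either scale none of the 16 exceeded the median of all genes. T cells, macrophages and tumour cells can all express the classical genes, so RNA of these sources cannot be told apart here. The part of the marker differences in the class I values was not tested.

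**Figure D4:**
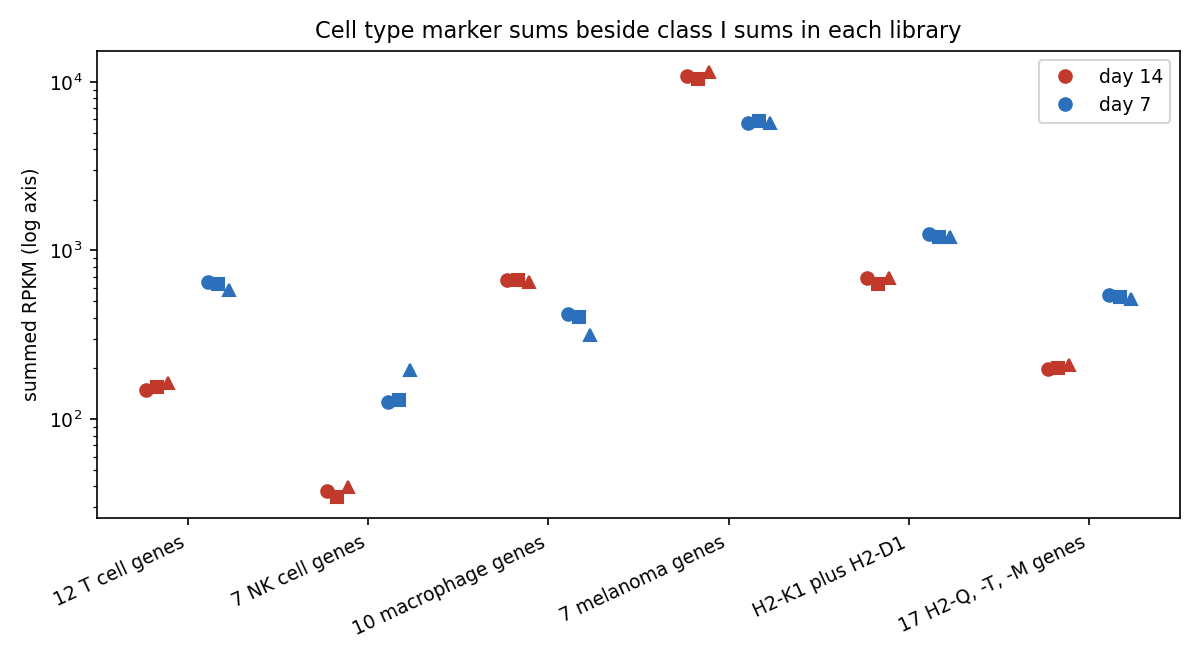
Summed RPKM of the T cell, NK cell, macrophage and monocyte, and melanoma markers, of H2-K1 plus H2-D1 and of the 17 H2-Q, H2-T and H2-M members in every library on a log axis, day 14 in red to the left of day 7 in blue, with circle, square and triangle for replicates 1, 2 and 3. T cell, NK cell and both class I sums lie lower in all day 14 libraries, and melanoma and macrophage sums lie higher. Dct makes up most of the melanoma sum and Lyz2 most of the macrophage sum, and some of their other markers have lower means on day 14.

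Genes that work beside the members were counted from 8 lists. Over all 6691 genes tested, 3.18% were called lower and 1.7% higher. Of the 5 immunoproteasome and activator genes, which make the proteasome form favouring class I peptides, 3 were called lower and 0 higher, with a median log2 fold change of -1.06. Psmb8 averaged 40.4 ± 3.5 RPKM on day 14 and 89.3 ± 9.4 RPKM on day 7 (log2 fold change -1.13, limma adjusted p = 0.0111). Psme1 averaged 252 ± 15 RPKM on day 14 and 384 ± 55 RPKM on day 7 (log2 fold change -0.60, limma adjusted p = 0.0266), and Psmb9 had a log2 fold change of -1.18 (limma adjusted p = 0.0467). Divided by T cell RNA the list stood at a median of 0.84. The 2 of 3 constitutive proteasome counterparts that could be tested, Psmb6 and Psmb7, gave no call, with a median of 0.66. Without day 7 replicate 3 the log2 fold changes were -0.75 for Psme1 (adjusted p = 0.0484), -1.02 for Psmb8 (adjusted p = 0.130) and -1.27 for Psmb9 (adjusted p = 0.184).

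Of 7 chaperones of the endoplasmic reticulum 1 was called higher and 0 lower, against 1.7% higher and 3.18% lower over all genes tested. The median log2 fold change was 0.19, or 0.087 without day 7 replicate 3. Canx, the calnexin that holds new heavy chains, averaged 365 ± 11 RPKM on day 14 and 213 ± 11 RPKM on day 7 (log2 fold change 0.77, limma adjusted p = 0.0135). Without day 7 replicate 3 Canx was not called, at a log2 fold change of 0.83 (adjusted p = 0.0818). Of 7 trimming peptidases outside the members, 6 were tested and 0 were called in either direction, with Lap3 at 20.1 ± 1.8 RPKM on day 14 and 23.4 ± 7.0 RPKM on day 7, and the median log2 fold change was 0.011, or 0.59 without day 7 replicate 3.

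Transcription factors of class I genes gave 2 lower, 0 higher and 12 without a call among 14 tested, against 3.18% lower and 1.7% higher over all genes. The list median was -0.26 on the log2 scale, -0.45 without day 7 replicate 3, or 1.54 when divided by T cell RNA. Irf1, an interferon-induced activator, averaged 26.5 ± 0.4 RPKM on day 14 and 62.5 ± 4.3 RPKM on day 7 (log2 fold change -1.20, limma adjusted p = 0.00616). Irf8 averaged 13.3 ± 0.7 RPKM on day 14 and 31.6 ± 2.6 RPKM on day 7 (log2 fold change -1.19, limma adjusted p = 0.0235). Neither was called without day 7 replicate 3, at log2 fold changes of -1.27 for Irf1 (adjusted p = 0.0576) and -1.10 for Irf8 (adjusted p = 0.187). Nlrc5, the class I transactivator, was named after its values were seen and averaged 18.5 ± 0.8 RPKM on day 14 and 32.9 ± 5.6 RPKM on day 7, with no call (log2 fold change -0.79, limma adjusted p = 0.113).

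A list of class I receptors and relatives gave 6 lower and 1 higher among 8 tested, against 3.18% lower and 1.7% higher over all genes tested. Not every gene on it, Klra8 and Lilrb4a among them, is established as binding class I molecules. The list median was -1.91 on the log2 scale, or -0.035 when divided by T cell RNA. The filter took the mean over both days, so a gene low on 1 day could enter through the other. Klra9 averaged 1.95 RPKM on day 14 and 41.8 RPKM on day 7, Klra8 4.57 and 45.7, and Pirb 14.7 and 1.99. Their calls may in part follow from that selection, which was not checked for the lists. The list shares genes with the T cell and NK cell markers. Klra9 and Klra8, Ly49 receptors of NK cells, had log2 fold changes of -3.86 (limma adjusted p = 3.75e-05) and -3.03 (limma adjusted p = 0.000821). Their family is close in sequence, so the split of reads between its genes is uncertain. Cd8b1, a chain of the CD8 co-receptor, averaged 34.3 ± 4.4 RPKM on day 14 and 135 ± 18 RPKM on day 7 (log2 fold change -1.95, limma adjusted p = 0.000425). Klrc1, part of the receptor for the H2-T23 product, averaged 6.45 ± 1.5 RPKM on day 14 and 25.9 ± 1.3 RPKM on day 7 (log2 fold change -1.87, limma adjusted p = 0.0173). Pirb, an inhibitory receptor of myeloid and B cells named after its values were seen, averaged 14.7 ± 0.8 RPKM on day 14 and 1.99 ± 0.9 RPKM on day 7 and was called higher (log2 fold change 2.43, limma adjusted p = 0.0188). Without day 7 replicate 3 Klrc1 and Pirb were not called, at log2 fold changes of -1.92 (adjusted p = 0.121) and 2.75 (adjusted p = 0.101).

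Class II genes gave 3 lower and 0 higher among 6 tested, against 3.18% lower and 1.7% higher over all genes tested. The list median was -0.61 on the log2 scale, or 1.33 when divided by T cell RNA. H2-Ab1 averaged 555 ± 19 RPKM on day 14 and 859 ± 112 RPKM on day 7 (log2 fold change -0.62, limma adjusted p = 0.00269). H2-Eb1 had a log2 fold change of -0.99 (limma adjusted p = 0.000425) and Cd74, the invariant chain, one of -0.60 (limma adjusted p = 0.0103). Without day 7 replicate 3 their log2 fold changes were -0.49, -0.88 and -0.76, with adjusted p from 0.00747 to 0.0400. Class I-like genes outside the H2 names had reads enough for a test in 2 of 11, Mr1 and Hfe, and 0 were called. Mr1 had a log2 fold change of -0.78. Hfe had 4.18, 7.42 and 6.43 RPKM on day 14 and 0.141, 0 and 16.1 RPKM on day 7, so that its log2 fold change of 0.68 became 2.68 without day 7 replicate 3.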

How the data were processed

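Cells bound by CD8a microbeads were sequenced as stranded poly-A mRNA libraries with molecular identifiers and paired reads, per the labels' protocols. Per the submitters' processing notes, the tools were Trimmomatic 0.36 and Subread 1.5.1 (featureCounts), with GRCm38. Which aligner was run, whether identifiers were used and how strand was set in counting is not given in the sources used here. The authors deposited RPKM with gene positions and lengths per the file headers. RPKM times length gave whole reads in all 6 libraries (tolerance 0.05), and most low read numbers were even (74.8% to 86.6%), so mates were counted singly. Depth is that of the reads, since the number of molecules is unknown.

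The 6691 genes averaging at least 20 CPM across 5 samples were tested with limma 3.58.1 in R 4.3.3 on log2(RPKM + 1), with day as the only term, precision weights per day, taken from a loess curve (span 0.3) of variance against mean with a floor of 0.005, a moderated test with trend, and Benjamini-Hochberg adjustment over all genes tested. Fold changes on this scale understate those of low genes. Day 7 replicates 1 and 2 entered as their mean. The script was tested on simulated data with known changes. No count test such as a negative binomial model was the main result because the files hold RPKM. Within-library ratios had an exact permutation test, two-sided. Alternatives were another pseudocount, filter, weighting, scaling, voom on recovered reads, the libraries counted singly, and each replicate left out. All members were accounted for: those passing the filter are named with values in every library, and of the rest the 4 with the highest mean RPKM. Of each list beside them, up to 4 called genes with the smallest p are named, or up to 2 with the highest mean RPKM where none was called. One listed gene is not reported here and is left out of its list's count. The members, lists, filter and weights were chosen with earlier results of these data known. Promoter windows come from RefSeq on GRCm38.p6 and were searched on both strands.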

Additional observations from a re-analysis of the deposited data

How the results depend on the processing

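Of the main calls, 327 genes (114 higher, 213 lower) and 11 members lower, the count of genes moved to 1465 (1181 higher, 284 lower) without a filter, 531 (291 higher, 240 lower) at 5 CPM, 1011 (601 higher, 410 lower) without weights, 1594 (967 higher, 627 lower) with 6 libraries counted singly, 2145 (1436 higher, 709 lower) with voom and 6367 per T cell transcript. On that last scale 0 members were lower, their median log2 fold change was 0.68, and H2-K1 stood at 1.21, H2-D1 at 1.03, B2m at 1.499, H2-Q4 at 0.65, H2-Q6 at 0.38, H2-Q7 at 0.83, H2-T23 at 0.71, H2-T24 at 1.59, H2-M3 at 1.44, Tap1 at 0.49, Tap2 at 0.33, Tapbp at 0.62, Tapbpl at 1.01 and Erap1 at 0.48. Under TPM scaling the median was -1.05. Same-numbered libraries did not deviate together (correlations -0.019, -0.013 and -0.036). Because day 7 replicates 1 and 2 are nearly alike, this check cannot tell whether the numbers pair the libraries. Adding the replicate number as a block to the fit of 6 single libraries changed 1594 genes to 1163, with 14 members lower in both. Leaving out 1 replicate gave 130 to 334 genes and 4 to 11 members lower, with a median over the members of -1.25 to -1.13, lowest in count without day 7 replicate 3, where day 7 is 1 averaged sample. Without day 7 replicates 1 and 2 together 121 genes and 6 members were called, H2-T24 turned to 0.35 and the H2-D1 to H2-K1 ratio to 0.020. With 1 library left out the log2 ratio difference of Tapbp to Tap1 ran from -0.0097 (without day 14 replicate 3) to 0.32, and that of Tap1 to Tap2 from -0.24 (without day 7 replicate 3) to 0.27. The cause was not tested.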
